A study of Homo sapiens with 15 samples.

Results

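Chromosome 4 of hg19 held 35635 of the 647617 peaks in 4 chromatin immunoprecipitation sequencing (ChIP-seq) lists from MDA-MB-231, an established triple-negative breast cancer cell line. Every peak that a list placed on this chromosome was taken. There were 3403 of 38584 H2A.Z peaks, 6767 of 109607 RUVBL2 peaks, and, for oxidised lysine 4 of histone H3 (H3K4ox), 12852 of 252459 peaks in replicate 1 and 12613 of 246967 in replicate 2. The labels of these libraries name no knockdown and no treatment, and they describe the H3K4ox antibody as handmade and those for H2A.Z and RUVBL2 as bought from Abcam. The series has 15 samples. Not analysed here were the input library, 8 RNA-seq libraries (shControl, shLOXL2 and shRUVBL2) and 2 of ATAC-seq (shControl and shRUVBL2). Nothing stated that the 2 H3K4ox libraries came from separate cultures. With a single library for H2A.Z and for RUVBL2, no comparison was tested, and differences between antibodies carry no replicate check. Chromosome 4, and on it the steps from 30 to 35 Mb and from 60 to 65 Mb, were chosen for their peak densities in these lists, so densities are given as a description.

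H2A.Z is a variant of histone H2A that marks nucleosomes next to active and poised promoters and enhancers. It is put in place by remodelling complexes of the SRCAP and TIP60/p400 type, and RUVBL2, an ATPase, is a subunit of both. H3K4ox is the product of LOXL2, a lysyl oxidase named in the title of the series, which there stands with chromatin compaction. Human chromosome 4 is long and comparatively poor in genes. An annotation of hg19 was not used here, so whether the 2 steps are gene-poor was not checked, and sites are named by position without genes or sequence.

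Chromosome 4 carried many H2A.Z peaks for its H3K4ox peaks. It had 17.8 H2A.Z peaks per Mb, 1.36 times the density over chromosomes 1 to 22 and X, and ranked 4 of these 23 chromosomes. H3K4ox was below that base, with 66.7 ± 0.9 peaks per Mb (SD, n = 2), or 0.79 ± 0.002 times, and ranked 18. RUVBL2 lay between them with 35.4 peaks per Mb and 0.96 times, at rank 11. The RUVBL2 value changed side of 1 with the measure, to 1.02 times in the upper 50% of the list by score and 1.01 times by covered bases.

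Set against each other, chromosome 4 had 26.7 ± 0.4 H2A.Z peaks per 100 H3K4ox peaks (SD, n = 2 H3K4ox replicates), and the other 22 chromosomes together had 14.9 ± 0.2. The ratio of these values was 1.80 ± 0.004. Chromosome 6 was higher, at 29.9 ± 0.6, and chromosome 13 came next below chromosome 4, at 22.5 ± 0.6. The remaining chromosomes lay between 6.15 on chromosome 15 and 17.9 on chromosome 18. These 3 chromosomes differed in the remaining antibody. Per 100 H3K4ox peaks there were 53.2 RUVBL2 peaks on chromosome 4, 71.9 on chromosome 6 and 37.8 on chromosome 13, against 43.3 over the chromosomes other than 4.

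**Figure D1:**
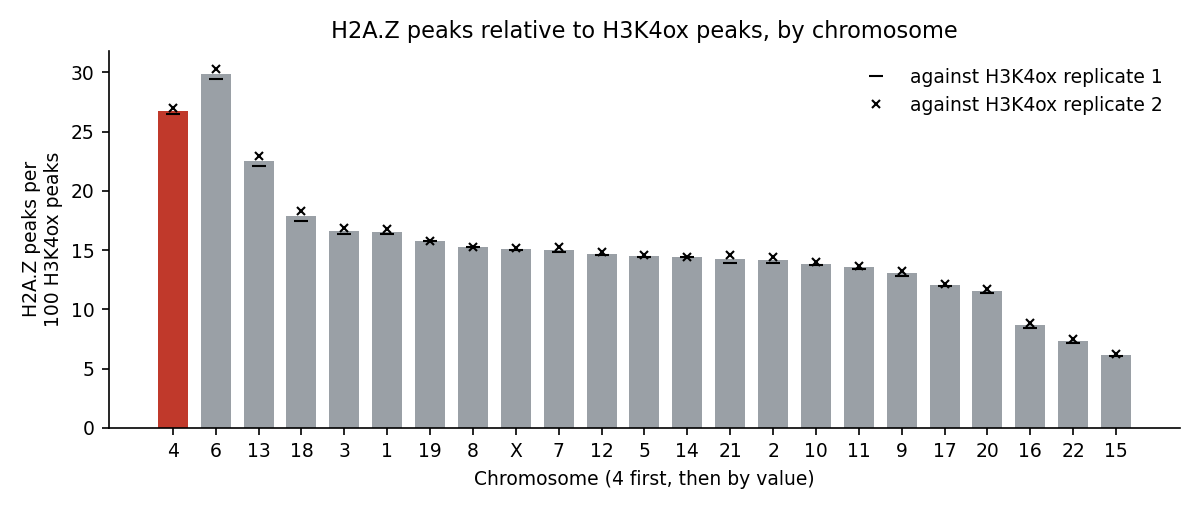
H2A.Z peaks per 100 H3K4ox peaks for chromosome 4 (red, 26.7) and the other autosomes and X (grey). Bars are the mean over the 2 H3K4ox replicates and marks the value against each replicate, and only chromosome 6 stands higher than chromosome 4, at 29.9.

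Chromosome 4 had a raised share of the H2A.Z list at low and at high scores. It held 8.82% of all H2A.Z peaks (95% Wilson interval 8.54 to 9.11). With the list divided by the score of the authors' peak caller into 10 groups of equal size, its share was 7.67% in the lowest group, 10.3% in group 8 and 8.06% in the highest. Its share of the H3K4ox lists was 5.09% in replicate 1 and 5.11% in replicate 2, and it was lowest in group 8, at 4.22% in each, and highest in group 10, at 6.37% and 6.38%. RUVBL2 showed the same highest group, with 8.22% in group 10 and 6.17% overall. Median widths on chromosome 4 were close to those elsewhere: 820 bp against 807 bp for H2A.Z and 890 bp against 869 bp for RUVBL2. For H3K4ox they were 833 bp against 841 bp in replicate 1 and 816 bp against 818 bp in replicate 2. Covered sequence came to 2.98 Mb for H2A.Z, 7.99 Mb for RUVBL2 and 14.0 ± 0.5 Mb for H3K4ox (SD, n = 2), within 191.0 Mb between the outermost peaks.

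Along the chromosome, H2A.Z and H3K4ox followed different courses. Cut into steps of 5 Mb, it gave 38 full steps and a short last one, in which H2A.Z counts ran from 25 to 221 with a median of 78. H3K4ox ran from 154 to 636 in replicate 1 (median 324) and from 154 to 614 in replicate 2 (median 311), and RUVBL2 from 93 to 249 (median 168.5). Across the full steps the H3K4ox replicates ranked the steps almost alike (Spearman 0.98, n = 38), and RUVBL2 followed them (0.70 and 0.71). H2A.Z did not follow either: its Spearman correlation was -0.30 with each H3K4ox replicate and -0.002 with RUVBL2. Without the steps at 30 and 60 Mb the H2A.Z correlation with H3K4ox was weaker, at -0.19 and -0.18 (n = 36). Steps of 1 chromosome come from the same libraries and are no replicates, so these are descriptions.

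The step from 30 to 35 Mb had 163 H2A.Z peaks and 93 RUVBL2 peaks, and 154 H3K4ox peaks in each replicate. It was the lowest full step for H3K4ox and for RUVBL2 and ranked 3 for H2A.Z. The step from 60 to 65 Mb had 221 H2A.Z peaks and 160 RUVBL2 peaks, with 214 and 218 H3K4ox peaks in replicates 1 and 2. It was the highest full step for H2A.Z. Numbered from the end of the short arm, they are steps 7 and 13. The remaining 36 full steps had between 25 and 175 H2A.Z peaks, a median of 75.

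In these 2 steps H2A.Z peaks were about as many as H3K4ox peaks. There were 106 H2A.Z peaks per 100 H3K4ox peaks at 30 to 35 Mb and 102 at 60 to 65 Mb, against a median of 21.9 and a highest value of 78.8 in the other full steps. Together the 2 steps had 38.4 H2A.Z peaks per Mb, against 16.7 in the rest of the chromosome, a ratio of 2.30. H3K4ox went the other way, with 37.0 ± 0.3 peaks per Mb in the 2 steps and 68.3 ± 0.9 in the rest (SD, n = 2), a ratio of 0.54 ± 0.01. RUVBL2 had 25.3 and 36.0 peaks per Mb, a ratio of 0.70. RUVBL2 was lower mainly at 30 to 35 Mb, where its ratio was 0.52, whereas at 60 to 65 Mb it was 0.89. Since H3K4ox was also low there, RUVBL2 per 100 H3K4ox peaks was 60.4 and 74.1 in these steps, against a median of 55.7 in the others.

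**Figure D2:**
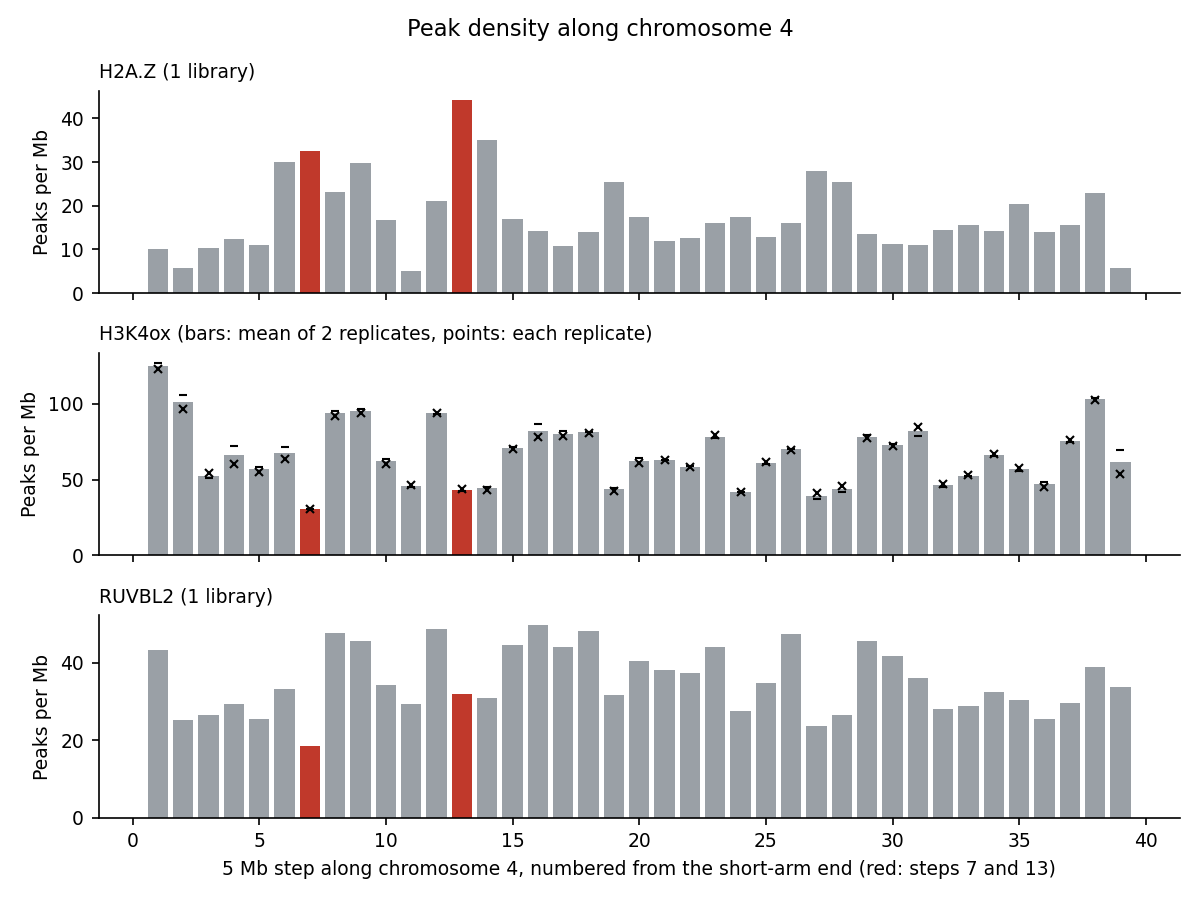
Peaks per Mb in each 5 Mb step of chromosome 4 for H2A.Z, H3K4ox and RUVBL2 (top to bottom), with steps 7 and 13 in red, H3K4ox bars as the mean of 2 replicates and marks for each replicate. H2A.Z reaches 32.6 and 44.2 peaks per Mb in the red steps, where H3K4ox has 30.8 and 43.2.

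Both stretches of low H3K4ox were wider than 5 Mb. The change at their borders took 1 to 2 windows of 1 Mb, although past the border at 71 Mb H3K4ox fell back. In 1 Mb windows, H3K4ox had 103 and 92 peaks (replicates 1 and 2) at 26 Mb, 49 and 33 at 27 Mb and 29 and 28 at 28 Mb. H2A.Z had 17, 27 and 45 peaks in the same windows. On the far side H3K4ox was still at 41 and 36 at 36 Mb and reached 95 and 79 at 37 Mb, while H2A.Z had 19 and 13 peaks in these windows. From 27 to 37 Mb, bounds chosen from these windows, H2A.Z averaged 33.5 and H3K4ox 32.65 peaks per Mb. In the flanking windows, 25 to 27 Mb and 37 to 40 Mb, H2A.Z averaged 14 and 22 and H3K4ox 117 and 133 peaks per Mb. Around the second step the low H3K4ox stretch ran from 58 to 71 Mb, with 45.2 H3K4ox and 35.8 H2A.Z peaks per Mb. In its flanking windows, 55 to 58 Mb and 71 to 75 Mb, H2A.Z averaged 20.7 and 14.75 and H3K4ox 120 and 78.6 peaks per Mb. The far border was less clear, with 134 and 135 H3K4ox peaks at 71 Mb but 50 and 48 at 72 Mb. The stretch was uneven for H2A.Z, which had 58 peaks at 65 Mb and 19 at 66 Mb. The 5 Mb bounds therefore cut through both stretches. Windows just inside had 33, 23, 54 and 51 H2A.Z peaks at 30, 34, 60 and 64 Mb, and windows just outside had 50, 31, 30 and 58 at 29, 35, 59 and 65 Mb.

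Other steps shared the pattern. Of the 39 steps, 6 had more than 50 H2A.Z peaks per 100 H3K4ox peaks: those at 30, 60, 65, 90, 130 and 135 Mb. They made up 15.7% of the chromosome's length and held 28.0% of its H2A.Z peaks, 12.1% of its RUVBL2 peaks and 9.62% of its H3K4ox peaks. With these 6 left out the chromosome still had 21.3 ± 0.3 H2A.Z peaks per 100 H3K4ox peaks (SD, n = 2), and without the steps at 30 and 60 Mb alone 24.4 ± 0.3. Both values are above the 14.9 of the other chromosomes. At the other extreme the short-arm end had few H2A.Z peaks and many H3K4ox peaks, with 8.16 H2A.Z peaks per 100 at 0 to 5 Mb and 5.73 at 5 to 10 Mb. The step at 50 to 55 Mb, with 10.9 per 100, contains most of the only peak-free stretch over 1 Mb, 49629694 to 52660178, which is 3.03 Mb long.

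The densest steps were mostly different for each antibody. The 5 densest for H2A.Z began at 60, 65, 30, 25 and 40 Mb, in that order. Those for H3K4ox began at 0, 185, 5 and 40 Mb, with the steps at 35 and 55 Mb tied at rank 5 (a mean of 468.5 peaks each), and those for RUVBL2 at 75, 55, 85, 35 and 125 Mb. The step at 40 Mb was among the densest for H2A.Z (149 peaks) and H3K4ox (483 and 468), and those at 35 Mb and 55 Mb for H3K4ox (476 and 461, 467 and 470) and RUVBL2 (238 and 244).

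On other chromosomes, steps within 20 H3K4ox peaks of these 2 had fewer H2A.Z peaks. The comparison used full steps that touch no peak-free stretch of 1 Mb or more. Within 20 peaks of the H3K4ox count at 30 to 35 Mb lay 33 steps of the other chromosomes, and they had 9 to 119 H2A.Z peaks with a median of 37, against 163 at 30 to 35 Mb. For 60 to 65 Mb there were 35 such steps with 13 to 192 H2A.Z peaks and a median of 46, against 221. None reached the chromosome 4 value in either set, but the 2 steps were chosen for their densities, so this is a description. It also depends on the limit of 20 peaks. The step at 65 Mb of chromosome 6, with 193 H2A.Z and a mean of 181.5 H3K4ox peaks, lay in neither set. Over 540 such steps of 23 chromosomes, those at 30 and 60 Mb ranked 2 and 3 by H2A.Z peaks per 100 H3K4ox peaks, behind the step at 65 Mb of chromosome 6 (106). Of the 20 highest, chromosome 4 held 6, chromosome 13 held 5 and chromosome 6 held 3. Their spans were 191.0, 96.1 and 171.0 Mb, so relative to length chromosome 13 held more than chromosome 4 or chromosome 6.

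Grouped by H3K4ox count, chromosome 4 stood higher in 4 of 5 classes. The chosen steps at 30 and 60 Mb are included, in the classes below 200 and of 200 to 300. Below 200 H3K4ox peaks, the median was 151.5 H2A.Z peaks in 2 steps of chromosome 4 and 29 in 82 steps of other chromosomes. Steps of X are among these 82, and X ranked 23 of 23 in density of H2A.Z (0.31 times) and of H3K4ox (0.32 times). Among steps with 200 to 300 H3K4ox peaks, the 12 of chromosome 4 had a median of 82.5 H2A.Z peaks and the 98 of other chromosomes 40. Among those with 300 to 400, the medians were 74.5 (12 steps) and 56 (100 steps). With 400 to 500 they were 71 (7 steps) and 53 (61 steps). From 500 upwards the order was opposite, with 51 (3 steps) and 82 (163 steps). This class has no upper limit, and its median H3K4ox count was 516 on chromosome 4 and 683.5 on the others. Per 100 H3K4ox peaks the H2A.Z values in it were close, at 11.8 and 12.4. The higher H2A.Z counts of chromosome 4 were thus found in its steps with fewer than 500 H3K4ox peaks.

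**Figure D3:**
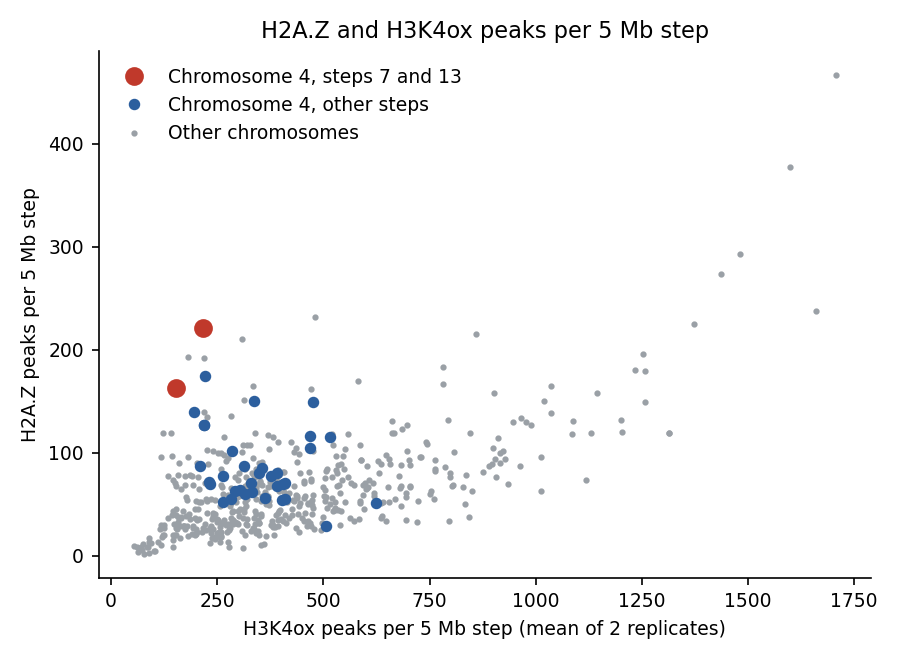
H2A.Z peaks against H3K4ox peaks (mean of 2 replicates) in 5 Mb steps, for steps 7 and 13 of chromosome 4 (red), its other steps (blue) and the steps of other chromosomes (grey). The red points, at 163 and 221 H2A.Z peaks, lie above every grey point within 20 H3K4ox peaks of them.

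H2A.Z peaks of the 2 steps had higher scores and were wider than those elsewhere on the chromosome. Scores were compared only between peaks of the same list. The H2A.Z median was 79.6 in the 2 steps (quartiles 60.1 and 122, 384 peaks) and 66.9 in the rest (quartiles 56.5 and 88.7, 3019 peaks). A score of 100 or more was reached by 33.6% of peaks in the 2 steps and 18.2% in the rest. Median width was 911.5 bp (quartiles 777 and 1043) in the 2 steps and 805 bp (quartiles 681 and 959) in the rest. The step at 60 Mb had the highest median score, 85.4, and the highest median width, 937 bp, of the 38 full steps. That at 30 Mb was nearer to the others, with a median score of 70.8 at rank 8 and a median width of 871 bp at rank 6. Its neighbours at 25 and 35 Mb had higher median scores, 79.5 and 78.5. Across full steps, H2A.Z count went with its median score (Spearman 0.59, n = 38) and its median width (0.61).

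Wider peaks went with higher scores. At scores of 50 to 60 the median width was 750 bp in the 2 steps and 686 bp in the rest, at 60 to 80 it was 830 and 792 bp, and at 80 to 120 it was 973.5 and 955 bp. From 120 upwards the order was opposite, with 1162.5 bp in the 2 steps and 1228 bp in the rest.

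**Figure D4:**
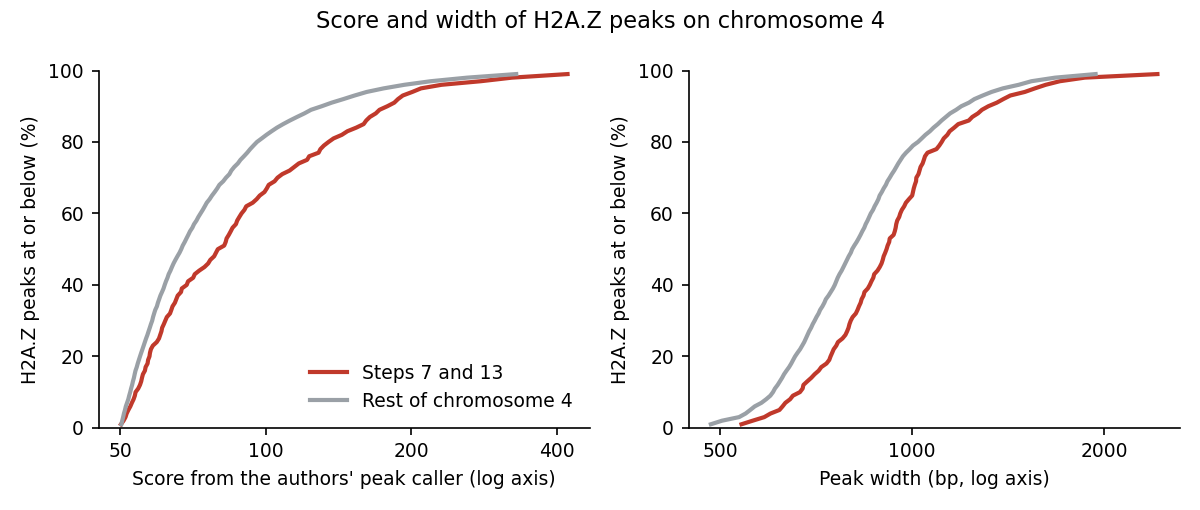
Cumulative share of H2A.Z peaks by score (left) and by width (right), both on log axes, for steps 7 and 13 together (red, 384 peaks) and the rest of chromosome 4 (grey, 3019 peaks), drawn through percentiles 1 to 99. The red curves lie to the right over most of their length, with medians of 79.6 against 66.9 for score and 911.5 against 805 bp for width.

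The other antibodies did not share the score difference at 30 to 35 Mb. There the median H3K4ox scores were 73.1 and 71.8 (replicates 1 and 2), against 80.5 and 80.6 in the rest, and the RUVBL2 median was 66.8 against 76.4. At 60 to 65 Mb all lists were higher than in the rest. H3K4ox had medians of 103 and 108, with widths of 988.5 and 997.5 bp against 832 and 816 bp. RUVBL2 had a median score of 93.5 and a median width of 1079.5 bp, against 76.4 and 887.5 bp. At 60 to 65 Mb the higher H2A.Z score therefore came with higher scores of each antibody, and at 30 to 35 Mb with lower ones. The part of this shared difference in the H2A.Z scores was not tested.

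The spacing of H2A.Z peaks was measured as well. The median distance from a peak centre to the nearest other was 7.52 kb in the 2 steps and 12.6 kb in the rest, and 37.2% and 27.5% of peaks had another within 5 kb. The mean spacing, set by the density for which the steps were chosen, was 26.0 kb in the 2 steps and 59.96 kb in the rest, so the shorter distances are no separate result.

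The 3 best-scoring H2A.Z peaks of each step were named, which are not the 6 best of both steps together. Of these 6, 5 had no H3K4ox or RUVBL2 peak, beside 60.4% of all H2A.Z peaks of the 2 steps. At 60 to 65 Mb they were 60683526 to 60686741 (score 665.06, 3216 bp wide), 61380162 to 61381730 (472.11, 1569 bp) and 62361707 to 62364659 (446.56, 2953 bp). None of these 3 overlapped a peak of H3K4ox or RUVBL2. At 30 to 35 Mb, 32382968 to 32384693 (368.17, 1726 bp) and 30035612 to 30036888 (343.27, 1277 bp) overlapped neither, and 33013586 to 33015196 (312.58, 1611 bp) overlapped H3K4ox of both replicates. Each of the 6 had between 2 and 6 other H2A.Z peaks within 50 kb. These steps were chosen for their densities and had 38.4 H2A.Z peaks per Mb, so these counts are no separate result.

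In the rest of the chromosome the 5 best were more varied. The highest, 45980590 to 45982879 (757.82), met neither H3K4ox nor RUVBL2. The next, 68263863 to 68266946 (756.67), met RUVBL2 at its highest score on chromosome 4 (1597.41) and no H3K4ox. Next came 83954750 to 83956135 (744.27), which met H3K4ox of replicate 2 only. At 100482805 to 100484803 (704.88) H3K4ox of both replicates and RUVBL2 (93.27) were present, and at 134999360 to 135001015 (630.33) H3K4ox of both replicates. The best H2A.Z peak of chromosome 4 ranked 51 in the whole list, so the highest H2A.Z scores lay on other chromosomes.

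Overlaps on chromosome 4 were set against the share that peaks of the same widths would have over all positions between its outermost peaks, which is what uniform random placement gives. It was computed exactly, with no draws and no p. H3K4ox shared regions are merged peaks that hold both replicates, of which chromosome 4 had 7936, together 12.3 Mb. H3K4ox peaks met a peak of the other replicate in 66.4% ± 1.7 of cases (SD over the 2 directions of the only replicate pair), against 13.8% over all positions. RUVBL2 was in H3K4ox shared regions with 4123 of 6767 peaks (60.9%, 95% Wilson interval 59.8 to 62.1), against 10.9%, a 5.61-fold ratio (log2 2.49). Of the 7936 shared regions, 3548 (44.7%) met RUVBL2.

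H2A.Z overlapped less. Of its 3403 peaks on chromosome 4, 1041 lay in H3K4ox shared regions (30.6%, interval 29.1 to 32.2), against 9.82% over all positions, a 3.12-fold ratio (log2 1.64). RUVBL2 was met by 848 (24.9%, interval 23.5 to 26.4), against 7.003%, a 3.56-fold ratio (log2 1.83). Both together were met by 582 (17.1%, interval 15.9 to 18.4), against 4.59%, a 3.73-fold ratio (log2 1.90). Neither an H3K4ox peak of either replicate nor a RUVBL2 peak was met by 1522 H2A.Z peaks (44.7%). With positions limited to 500 kb around each peak the log2 ratios for H2A.Z were 1.63, 1.77 and 1.84. Among the better-scoring 50% of peaks they were 1.37, 1.65 and 1.62, whereas that of RUVBL2 in H3K4ox shared regions was 3.25.

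On chromosome 4 the H2A.Z share in H3K4ox shared regions was the second lowest of the 23 chromosomes, above chromosome 13 (16.6%) and below chromosome 6 (38.8%). The median of the other 22 was 42.1%. Relative to all positions of the same chromosome its ratio, 3.12, was nearer the others, at rank 19 within a range of 1.95 to 7.99 and beside a median of 3.45. For H2A.Z with RUVBL2 the ratio of 3.56 ranked 21, with a median of 4.60 elsewhere.

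Within the 2 steps the overlaps of H2A.Z were lower still. H3K4ox shared regions held 58 of 384 H2A.Z peaks there (15.1%, interval 11.9 to 19.0) and 983 of 3019 in the rest (32.6%, interval 30.9 to 34.3). RUVBL2 was met by 58 (15.1%, interval 11.9 to 19.0) in the 2 steps and 790 (26.2%, interval 24.6 to 27.8) in the rest. The intervals do not overlap, but they cover counting error only and treat peaks of 1 library as independent. Over all positions of the same regions the H3K4ox shares were 5.96% in the 2 steps and 9.99% in the rest, which gives 2.53-fold and 3.26-fold. Those for RUVBL2 were 5.29% and 7.07%, which gives 2.86-fold and 3.70-fold. The steps differed from each other: for H3K4ox the ratio was 3.20 at 30 to 35 Mb and 2.13 at 60 to 65 Mb, and for RUVBL2 3.996 and 2.26. At 30 to 35 Mb these ratios were thus close to those of the rest, and at 60 to 65 Mb below them.

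The overlap of RUVBL2 with H3K4ox differed between the 2 steps. At 30 to 35 Mb, H3K4ox shared regions held 33 of 93 RUVBL2 peaks (35.5%, interval 26.5 to 45.6), and at 60 to 65 Mb 113 of 160 (70.6%, interval 63.2 to 77.1). The rest of the chromosome, at 61.1% (interval 59.9 to 62.2), lay between them. Relative to all positions of the same region the ratios were 9.15 at 30 to 35 Mb, 7.91 at 60 to 65 Mb and 5.49 in the rest. The 2 steps together had 57.7% (interval 51.5 to 63.6), a mean of opposite deviations. By share, H3K4ox peaks showed the same order. They met the other replicate in 62.0% ± 1.4 of cases at 30 to 35 Mb, 69.7% ± 0.7 at 60 to 65 Mb and 66.4% ± 1.7 in the rest. Here the SD is over the 2 directions of the only replicate pair, not over independent pairs. The shares over all positions were 5.51%, 10.96% and 14.06%. Relative to these the ratio was highest at 30 to 35 Mb, at 11.2, against 6.36 at 60 to 65 Mb and 4.72 in the rest.

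**Figure D5:**
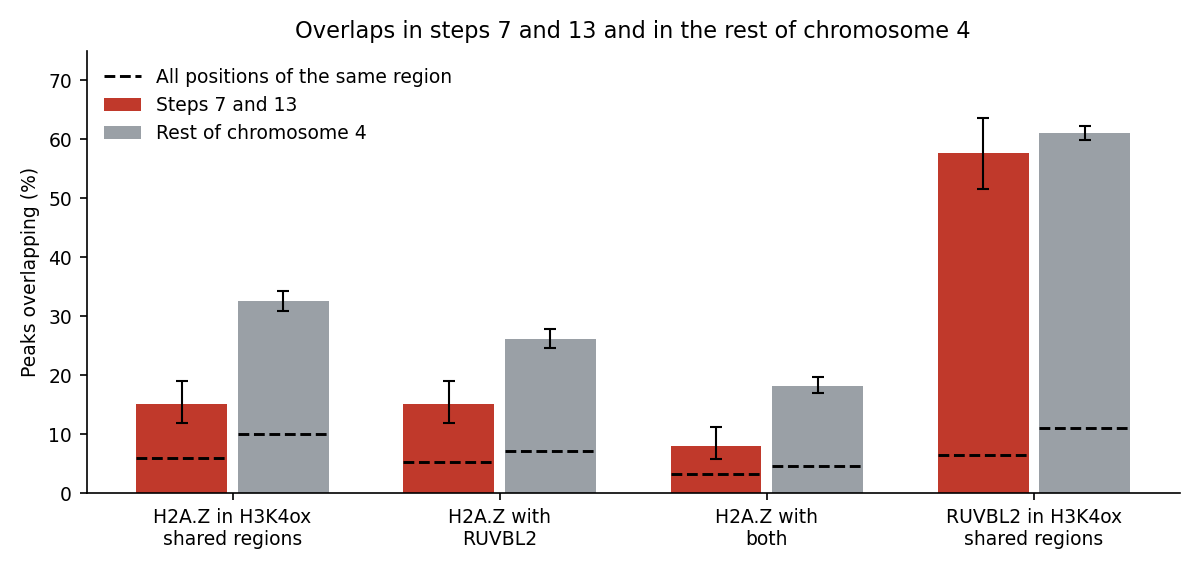
Share of peaks overlapping, with 95% Wilson intervals, in steps 7 and 13 (red) and the rest of chromosome 4 (grey). Dashed lines give the share over all positions of the same region, and H2A.Z shares are lower in red (15.1% against 32.6% for H3K4ox shared regions) while the RUVBL2 share in red (57.7%) joins 35.5% in step 7 and 70.6% in step 13, against 61.1% in grey.

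Most H2A.Z peaks of the 2 steps met neither an H3K4ox shared region nor RUVBL2. The steps were chosen for their densities, and these partners covered less of them. Over all positions, H3K4ox shared regions were met in 5.96% in the 2 steps and 9.99% in the rest, and RUVBL2 in 5.29% and 7.07%. The share over all positions that meets neither was not computed. Outside H3K4ox shared regions and without RUVBL2 lay 299 of 384 (77.9%, interval 73.4 to 81.7), against 1797 of 3019 in the rest (59.5%, interval 57.8 to 61.3). With H3K4ox peaks of either replicate counted, 232 (60.4%) and 1290 (42.7%) remained without any other peak. Peaks in shared regions with RUVBL2 were 31 (8.07%) in the 2 steps and 551 (18.3%) in the rest. Over all positions both partners were met in 3.30% and 4.64%. By median score, peaks with neither stood at 78.9 in the 2 steps (299 peaks) and 67.3 in the rest (1797 peaks), with median widths of 914 and 813 bp. This difference lay mainly at 60 to 65 Mb, where their median score was 88.2, and at 30 to 35 Mb it was 69.3. The classes with 1 partner differed more. Peaks in shared regions without RUVBL2 had medians of 87.9 in the 2 steps (27 peaks) and 66.4 in the rest, and peaks outside them with RUVBL2 had 84.7 (27 peaks) and 67.2. The 31 with both partners had a median score of 69.0 in the 2 steps, nearer to the 65.3 of the 551 in the rest.

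Over all H2A.Z peaks of each part, cover by H3K4ox shared regions and by RUVBL2 was highest at the H2A.Z centre within 20 kb. Where the overlapping peaks themselves were centred was not measured. In the 2 steps H3K4ox shared regions covered 14.1% of H2A.Z centres, 3.91% of the positions 20 kb to their left and 5.21% of those 20 kb to their right. The rest had 31.4% at centres, 8.94% on the left and 7.49% on the right. RUVBL2 covered 13.3% of centres in the 2 steps, with 4.43% on the left and 4.69% on the right, and 23.5% in the rest, with 5.80% and 4.57%.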

How the data were processed

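Peaks carried MACS names and a score per peak written by the authors' caller, per the file headers and peak names. No source states the unit of the deposited score, whose lowest value was 50 in each list. Each library had its own list. Headers of the H3K4ox lists name an input and those of H2A.Z and RUVBL2 do not, and all carry the unexplained term multilocus. Effects of either on these peaks were not tested. Bowtie, TopHat and the build hg19 come from the submitters' processing notes, without versions. Depth was unknown, which leaves the spread of the 2 H3K4ox replicates and the number of peaks as measures of precision.

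Samples were grouped by antibody. Peaks overlapped when they shared at least 1 bp, a peak belonged to the step of its centre, and densities used the span between outermost peaks. The base for a relative density was all peaks of chromosomes 1 to 22 and X over their summed span. Shares over all positions were computed over every position and checked on simulated data against enumeration. That check took a whole span or the positions near each peak. It did not cover shares limited to the 2 steps or to the rest. Wilson intervals are at 95%. Positions count from 1. Python 3.11.15, numpy 2.4.6, pandas 2.3.3, scipy 1.17.1 and matplotlib 3.10.9 were used. Chromosome 4, its 2 steps and the descriptions were chosen with earlier results of these data known. Named were the 3 best-scoring H2A.Z peaks of each step, the 5 best of the rest, the 3 steps with the highest and the 3 with the lowest H2A.Z to H3K4ox ratio, and the 5 densest of each antibody. Planned lists of genes on chromosome 4 were not applied, since an annotation of hg19 was not used here.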

Additional observations from a re-analysis of the deposited data

How the results depend on the processing

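Of 62 recomputed values of 14 results, 27 stayed within the replicate SD or 95% interval. Among the 27 are H3K4ox densities and the H2A.Z to H3K4ox ratio with an H3K4ox replicate left out. Such a value always lies within the SD of 2 replicates, so it is no check. A further 33 left the SD or interval, to larger or smaller effects on the same side of no difference, and 2 changed direction. The 2 were the relative RUVBL2 density of chromosome 4, which went to 1.02 in the upper 50% by score and 1.01 by covered bases. Under these 2 settings the relative density was 0.76 and 0.83 for H3K4ox and 1.41 and 1.32 for H2A.Z, and the H2A.Z to H3K4ox ratio against other chromosomes was 1.93 and 1.65. Density in the 2 steps over the rest was 2.84 and 2.59 for H2A.Z, and 0.58 by covered bases for H3K4ox. With the wider outlines of 27 to 37 and 58 to 71 Mb, chosen after seeing the data, the H3K4ox value was 0.56. The median H2A.Z score exceeded that of the rest by 3.94 at 30 to 35 Mb and 18.5 at 60 to 65 Mb. Median width exceeded it by 66 bp at 30 to 35 Mb and by 67 bp in the upper 50% by score.

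For overlaps against all positions, requiring 50% of the peak to be covered gave log2 ratios of 3.23 for the H3K4ox replicates, 3.26 for RUVBL2 in H3K4ox, 2.19 for H2A.Z in H3K4ox, 2.42 for H2A.Z with RUVBL2 and 2.36 for both. Intervals of 200 bp at the centres gave 4.18, 3.93, 3.13, 3.22 and 3.66. The upper 50% by score gave 2.96, 3.25, 1.37, 1.65 and 1.62. Positions within 500 kb gave 1.96 for the replicates and 2.22 for RUVBL2 in H3K4ox. Leaving out an H3K4ox replicate gave 2.26 to 2.31 for RUVBL2 in H3K4ox, 1.66 to 1.70 for H2A.Z in H3K4ox and 1.91 to 1.96 for both. The cause of these shifts was not tested. No paired analysis was possible because only H3K4ox had more than 1 library. Unknown depth limits any comparison of list sizes.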
